A study of Mus musculus with 6 samples.

Results

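The Schlafen family was followed through 7 mouse genes, Slfn1, Slfn2, Slfn3, Slfn4, Slfn5, Slfn8 and Slfn9, which were taken by their gene name from the probes of a one-colour expression array. They are represented by 9 of 39429 probes, because Slfn8 and Slfn9 have a pair of probes each, and all 7 are among the 16365 genes that could be tested. The 6 arrays hold RNA of myeloid cells sorted 3 days after an acute myocardial infarction (AMI) in wild-type C57BL/6N mice. The hearts (numbers 1, 2 and 4) are cells of the infarcted left ventricle and the spleens (numbers 1, 2 and 4) are cells of the spleen. Sorted cells stained high for CD45 and CD11b, and low for the group of B220, Thy-1.2, NK-1.1, DX5 and Ly6G, per the labels' protocols. Every sample, spleens included, is from an infarcted animal, and uninfarcted animals were not analysed here. Each array is 1 spleen or 1 ventricle, per the series' design text, and which of them came from the same mouse is not stated.

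Schlafen proteins are intracellular proteins of vertebrates that were first described in developing thymocytes, where their levels change as the cells mature and divide. They share a nuclease-like fold, and some bind or cut transfer RNA. The short members, Slfn1 and Slfn2, hold little more than that core, the intermediate members, Slfn3 and Slfn4, carry a further domain, and the long members, Slfn5, Slfn8 and Slfn9, end in a helicase-like part. Several are induced by interferons and by ligands of Toll-like receptors in macrophages, and Slfn2 is needed to keep T cells and monocytes quiescent.

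The genes lie next to each other on chromosome 11. In mm9, the build named in the file headers, the member probes run from 82774907 (Slfn5) to 83028490 (Slfn3), in the order Slfn5, Slfn9, Slfn8, Slfn2, Slfn1, Slfn4 and Slfn3. Positions relative to exons and UTRs were not analysed here. Members are close paralogs, so the sequences on the array were compared first. Each is 60 bases long, written 5′ to 3′. The probes of Slfn4 (plus strand, chr11:83002974-83003033) and Slfn3 (plus strand, chr11:83028431-83028490) are shown because these are the members whose levels separated the tissues. Those of Slfn8 (minus strand, chr11:82815804-82815863) and Slfn9 (minus strand, chr11:82793914-82793973) are shown because they are the most alike, with their longest shared run in capitals.
Slfn4: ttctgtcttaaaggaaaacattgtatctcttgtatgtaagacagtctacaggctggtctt
Slfn3: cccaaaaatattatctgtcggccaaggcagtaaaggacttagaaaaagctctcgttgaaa
Slfn8: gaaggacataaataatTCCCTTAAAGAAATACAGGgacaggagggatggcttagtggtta
Slfn9: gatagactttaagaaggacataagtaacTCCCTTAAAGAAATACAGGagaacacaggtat
The Slfn8 and Slfn9 sequences share 19 bases in a row, the longest run between any 2 Schlafen probes of the array. The Slfn4 and Slfn3 sequences share 7 at most. How far a paralog's RNA contributed to any probe was not tested.

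Levels are log2 of the processed signal minus the 75th percentile of the same array, so a level of 0 is the signal below which 75% of its probes lie. Levels of different probes are not comparable with each other. An array had 52.8% to 63.6% of its probes well above background, and 0 spots were saturated. The spleens varied more than the hearts, with a larger SD in spleen for 84.3% of genes, and spleen 4 stood apart from the other spleens. Of the 9 member probes, 8 were well above background on all 6 arrays and all 9 entered the fit.

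Slfn4 was the only member whose level passed the test between the tissues, and it was higher in the heart samples. Slfn4 is an intermediate-length member that macrophages induce on stimulation. Its signal was 7078, 7364 and 6701 units in hearts 1, 2 and 4 and 4898, 3331 and 4661 units in spleens 1, 2 and 4. On the log2 scale its levels were 2.23, 2.34 and 1.99 in heart and 1.39, 1.07 and 1.49 in spleen. Every heart lay above every spleen, and spleen 2 was the lowest sample. The mean of the hearts was 2.19 ± 0.18 (SD, n = 3) and that of the spleens 1.32 ± 0.22 (SD, n = 3). The log2 fold change was 0.87 ± 0.20 (SE, limma, adjusted p = 0.0343), a 1.83-fold difference with a 95% confidence interval from 0.39 to 1.35 in log2 units.

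With 1 of 7 members called, the family stood close to all tested genes, of which 15.4% were called in either direction, 8.88% higher and 6.52% lower in heart. At an unadjusted p under 0.05 by limma there were 3 members (Slfn4, Slfn3 and Slfn5), beside 31.6% of all genes. The call of Slfn4 was near the threshold. It ended without heart 1 (adjusted p = 0.144), heart 2 (0.149), heart 4 (0.0897) or spleen 2 (0.0711), and it held without spleen 1 (0.0449) or spleen 4 (0.0249). It also ended with quantile normalization (log2 fold change 0.71, adjusted p = 0.0613) and with arrays scaled to their median (0.997, adjusted p = 0.0554). Slides and the date in the sample titles were checked as batches. Slide 1 held spleen 1 and spleen 2, slide 2 held heart 1 and spleen 4, and slide 3 held heart 2 and heart 4. On slide 2, the only slide with both tissues, heart 1 exceeded spleen 4 by 0.74, and with slide as a fixed block the adjusted p was 0.407. Within the earlier date the difference was 1.06 (adjusted p = 0.0623), and in the only pair of the later date, heart 4 and spleen 4, it was 0.50.

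Slfn3, the other intermediate-length member and the neighbour of Slfn4, is known from T cells and the intestinal epithelium. Its levels were −0.33, −0.15 and −0.43 in hearts 1, 2 and 4 and −0.96, −0.89 and −0.88 in the spleens. The spleens lay closer together than the hearts, and no spleen reached the lowest heart. The means were −0.30 ± 0.14 (SD, n = 3) and −0.91 ± 0.042 (SD, n = 3). The log2 fold change of 0.61 ± 0.17 (SE) had an adjusted p of 0.0569 by limma, just outside the threshold. It was 0.0434 with quantile normalization and 0.0448 in the deposited value table. In both of these fits Slfn3 was called in place of Slfn4, so that 1 of 7 members was called beside 15.3% of genes. The adjusted p of Slfn3 was 0.0509 (without spleen 4) to 0.236 (without heart 2) with single arrays left out. Heart 1 exceeded spleen 4 by 0.55 on slide 2, and the difference within the earlier date was 0.69 (adjusted p = 0.109). Slfn4 and Slfn3 were the 2 of 7 members whose tissues did not overlap, against 40.7% of all tested genes, or 24.1% counting those higher in heart.

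**Figure D1:**
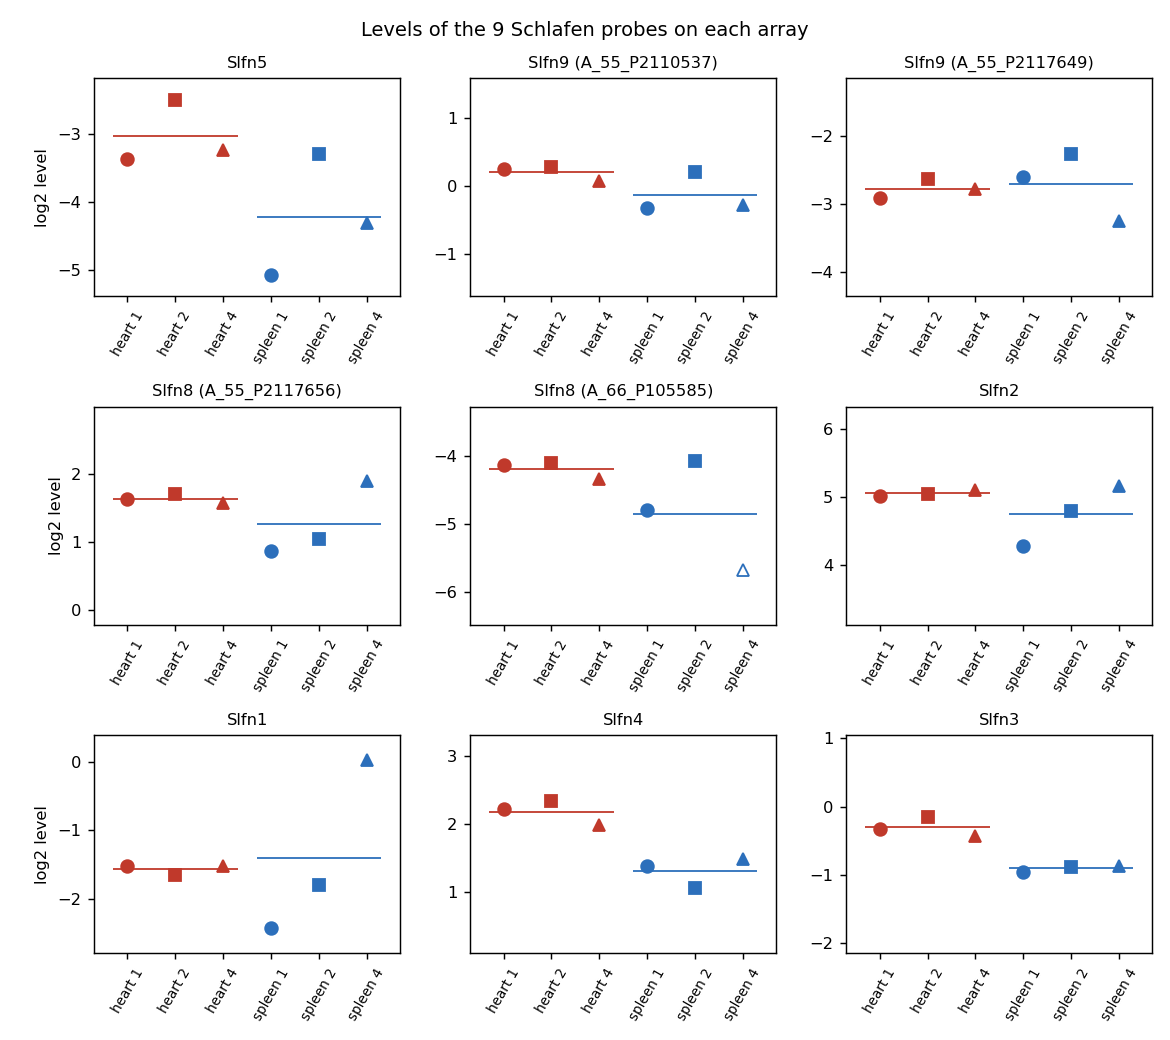
Log2 level (vertical axis, relative to the 75th percentile of each array) of the 9 Schlafen probes on the 6 arrays (horizontal axis), in gene order along chromosome 11; every panel spans the same range of log2 units. Red marks are hearts, blue marks are spleens, lines are tissue means and an open mark was not well above background. The hearts lie above the spleens without overlap for Slfn4 and Slfn3 alone, and spleen 4 is far above the other spleens for Slfn1.

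Slfn5, a long member found in the nucleus, had the largest difference of means among the 7 and the widest spread within the hearts. Its levels were −3.37, −2.50 and −3.24 in hearts 1, 2 and 4 and −5.07, −3.29 and −4.31 in spleens 1, 2 and 4. Spleen 2 lay within the range of the hearts, so the tissues overlapped. Heart exceeded spleen by 1.19 ± 0.48 (SE) in log2 units, with an unadjusted p of 0.046 by limma and an adjusted p of 0.151. Its 95% interval ran from 0.028 to 2.34. Within slide 2 it was 0.94. Leaving out spleen 1 gave 0.76 (adjusted p = 0.264), spleen 2 gave 1.65 (0.0545), spleen 4 gave 1.14 (0.206) and heart 2 gave 0.92 (0.383). No fit that left out an array called it. All 6 arrays had Slfn5 well above background, at signals between 55.6 and 256 units.

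The downstream probe of Slfn8 (A_55_P2117656), a long member, gave levels of 1.64, 1.70 and 1.58 in the hearts and 0.87, 1.04 and 1.90 in spleens 1, 2 and 4. The hearts were close together, while spleen 4 lay above every heart and the other spleens below. Heart minus spleen was 0.37 ± 0.30 (SE, adjusted p = 0.445, 95% interval −0.34 to 1.08). Without spleen 1 it was 0.17 (adjusted p = 0.728) and without spleen 2 it was 0.25 (adjusted p = 0.656). Without spleen 4 it was 0.69 (adjusted p = 0.0336), and 2 of 7 members were then called, beside 24.5% of all genes tested in that fit. With slide as a fixed block, which rests on heart 1 and spleen 4, the sign turned (−0.26).

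The upstream Slfn8 probe (A_66_P105585, minus strand, chr11:82830985-82831044) placed spleen 4 at the other end. It read −4.80 in spleen 1 and −4.08 in spleen 2, but −5.68 in spleen 4, where it was not well above background. The hearts were at −4.13, −4.11 and −4.34. In the fit on every probe the difference was 0.66 ± 0.40 (SE, adjusted p = 0.312), a fit in which 15% of probes were called, or 0.50 with spleen 4 held at the detection floor of that array. The 2 Slfn8 probes thus disagreed on whether spleen 4 was the highest or the lowest of the 6 arrays, and the reason was not tested.

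Slfn9, the long member next to Slfn8, was also read by a pair of probes. The brighter of them (A_55_P2110537, minus strand, chr11:82793812-82793871) had levels of 0.24, 0.28 and 0.07 in the hearts and −0.33, 0.20 and −0.28 in spleens 1, 2 and 4. Spleen 2 again lay among the hearts. The difference between the tissues was 0.33 ± 0.21 (SE, adjusted p = 0.327, 95% interval −0.17 to 0.83), and it was 0.24, 0.50 and 0.26 without spleens 1, 2 and 4 (adjusted p 0.485, 0.129 and 0.421). The other probe, the one that shares its run of bases with Slfn8, had a difference of −0.075 ± 0.28 (SE, adjusted p = 0.886 in the fit on every probe). It was lowest in spleen 4 (−3.25) and highest in spleen 2 (−2.27), so it did not share the high spleen 4 value of the downstream Slfn8 probe.

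Slfn2, the short member required for quiescence of T cells and monocytes, was at 5.01, 5.04 and 5.11 in the hearts and 4.29, 4.80 and 5.16 in spleens 1, 2 and 4. Its signals lay between 36560 and 59330 units. The hearts differed by little, spleen 1 was the lowest sample and spleen 4 the highest. The log2 fold change of 0.31 ± 0.25 (SE, adjusted p = 0.455, 95% interval −0.30 to 0.91) had no settled direction, since it was −0.11 with quantile normalization and −0.090 in the deposited value table. Without spleen 1 it was 0.078 (adjusted p = 0.807), and without spleen 4 it was 0.51 (adjusted p = 0.13).

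Slfn1, the short member whose forced expression slows the growth of thymocytes, had the widest spread between spleens of any member. Its levels were −1.53, −1.65 and −1.53 in the hearts and −2.44, −1.80 and 0.03 in spleens 1, 2 and 4. In signal units spleen 4 had 1696, against 345.6 and 458.2 in the other spleens and 461.2 to 582.4 in the hearts. The hearts averaged −1.57 ± 0.070 (SD, n = 3) and the spleens −1.40 ± 1.28 (SD, n = 3). Their difference was −0.17 ± 0.60 (SE, adjusted p = 0.875, 95% interval −1.61 to 1.27). Its sign rested on 1 sample, because it was 0.54 (adjusted p = 0.15) without spleen 4, and −0.69 without spleen 1.

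**Figure D2:**
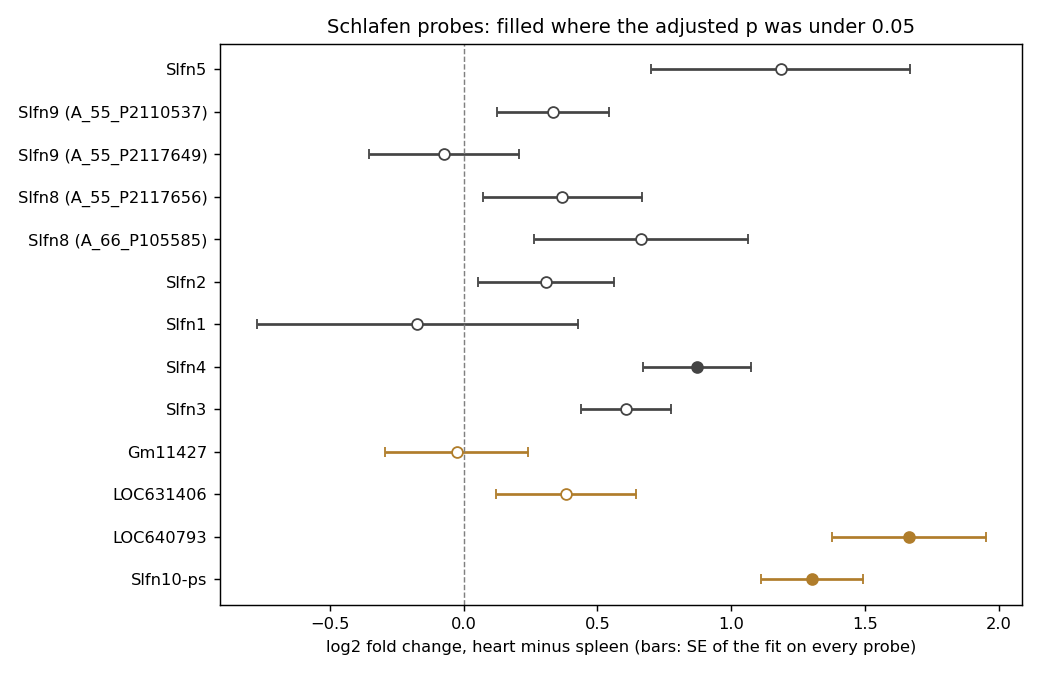
Log2 fold change, heart minus spleen (horizontal axis), with its SE for each tested Schlafen probe in the fit on every probe; members are grey, other Schlafen probes brown, and filled marks had an adjusted p under 0.05. Among the members the Slfn4 mark alone is filled, and Slfn10-ps (1.30) and the predicted transcript LOC640793 (1.66) lie further to the right.

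Among the members, 6 of 7 had a higher mean in heart, as did 58% of all tested genes, and the median log2 fold change was 0.37, against 0.10 for all tested genes. The standard deviation was larger in spleen than in heart for 8 of the 9 probes, and Slfn3 was the exception.

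**Figure D3:**
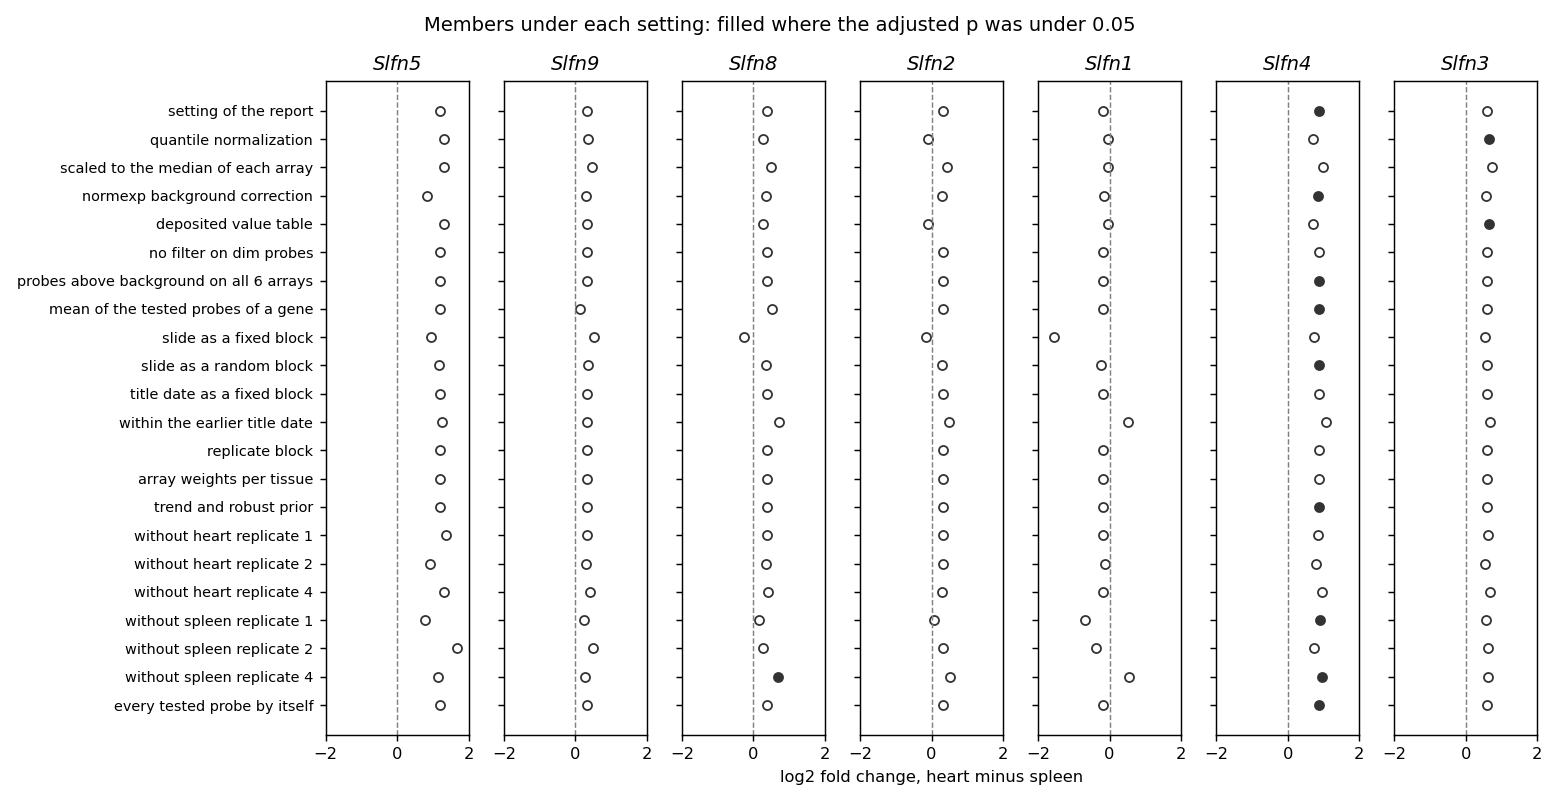
Log2 fold change, heart minus spleen (horizontal axis), of the 7 members under the setting of the report and under 21 alternatives (rows); filled marks had an adjusted p under 0.05. Slfn4 lies to the right of 0 in every row, between 0.71 and 1.06, and is filled in 8 of the 21 alternatives, while Slfn1, Slfn2 and Slfn8 cross 0.

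Other genes of the family on the array were Slfn10-ps, Slfn14, Slfnl1 and the antisense transcript Slfn5os. Slfn10-ps, a pseudogene between Slfn8 and Slfn2 (minus strand, mm9 chr11:82842116-82842175), had levels of 1.77, 1.87 and 1.66 in the hearts and 0.44, 0.25 and 0.69 in the spleens. No spleen reached the lowest heart. The gene rose in heart by 1.30 ± 0.19 log2 units (SE, adjusted p = 0.0101). That call ended without heart 1 (0.0636), heart 2 (0.0651) or heart 4 (0.0522) and with slide as a fixed block (1.08, adjusted p = 0.222). Slfn14, Slfnl1 and Slfn5os (carried on the array under its older name, 1700003F17Rik) were not well above background on any of the 6 arrays.

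The interferon pathway was examined next, since several Schlafen genes are among its targets. Of 25 type I interferon-stimulated genes, all tested, 5 were called higher in heart and 0 lower, beside 8.88% and 6.52% of all genes. Their median log2 fold change was 0.81, against 0.10 for all genes. All 25 had a higher mean in heart, as did 58% of all genes. Cxcl10, a chemokine, rose by 3.27 ± 0.21 (SE, adjusted p = 0.00084), the antiviral gene Rsad2 by 2.27 ± 0.37 (adjusted p = 0.0146) and the ubiquitin-like modifier gene Isg15 by 2.07 ± 0.29 (adjusted p = 0.00899). Ifi27l2a, the brightest gene not called, was at 0.55 (adjusted p = 0.222). The count was 19 without spleen 4, beside 13.9% of all genes called higher in that fit, and 1, 2 and 1 without heart 1, heart 2 and heart 4, beside 2.11, 2.19 and 2.21% of all genes. With slide as a fixed block it was 0, beside 0.44%, and within the earlier date it was 9, beside 5.67%. Only Cxcl10 of the 3 was called in all 6 fits that left an array out. The calls of Rsad2 (adjusted p 0.0681 to 0.0707) ended without any 1 heart, and those of Isg15 without heart 1 (0.0534) or heart 4 (0.0507). Beside 8.88% of all genes called higher and 6.52% called lower, 1 of 13 interferon receptors and signalling factors was called higher and 0 lower. It was the receptor subunit gene Ifnar1 (1.31 ± 0.27, adjusted p = 0.0268; 0.109, 0.1 and 0.105 without heart 1, 2 and 4, and 0.0674 without spleen 2). The bright receptor gene Ifngr1 was at 0.074 (adjusted p = 0.923).

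Within the spleens, spleen 4 differed in the interferon-stimulated genes as well. It was the highest spleen for 24 of these 25 genes, against 48% of all tested genes, and lay above the mean of spleen 1 and spleen 2 by a median of 1.14 log2 units. Among the members it was the highest spleen for 5 of 7. It exceeded the mean of the other spleens by 2.15 for Slfn1, 0.95 for Slfn8 (downstream probe) and 0.62 for Slfn2, by 0.26 for Slfn4 and 0.044 for Slfn3, and it was 0.12 and 0.22 below it for Slfn5 and Slfn9. Slfn1, Slfn2 and the downstream Slfn8 probe were highest in spleen 4 of all 6 arrays, as were 26% of all tested genes. The upstream Slfn8 probe was lowest there. The part of the interferon genes in these member values was not tested. Spleen 1 and spleen 2 shared slide 1 and the earlier date, while spleen 4 was on slide 2 and had the later date. A difference of spleen 4 therefore cannot be told apart from a difference of slide or date.

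**Figure D4:**
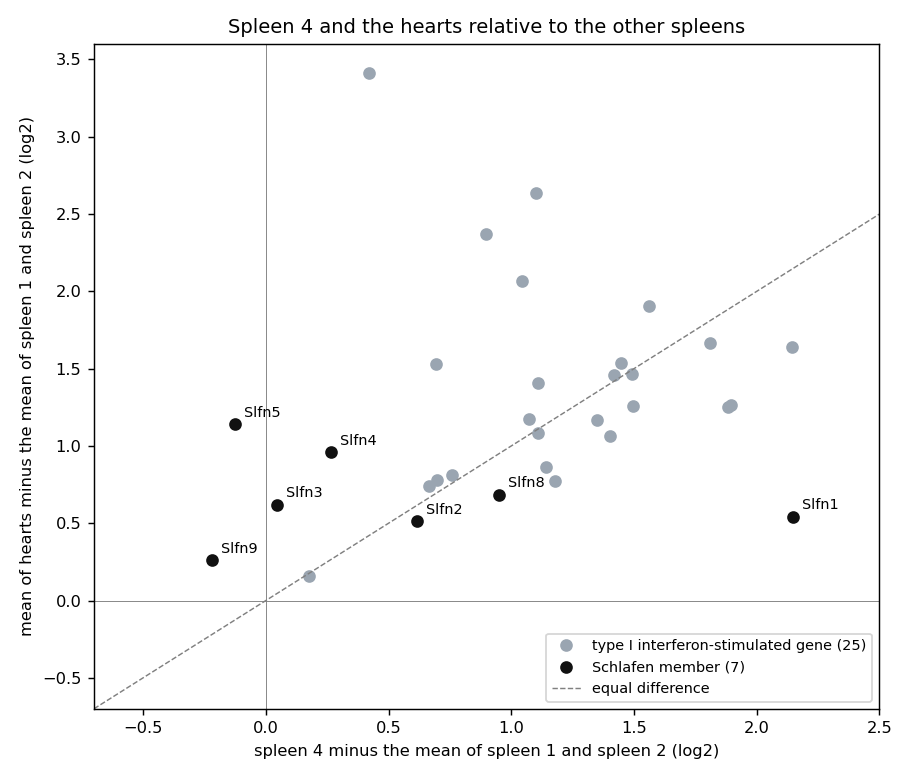
For each gene, spleen 4 minus the mean of spleen 1 and spleen 2 (horizontal axis) against the mean of the 3 hearts minus that same mean (vertical axis), in log2 units; the axes share that mean, and the dashed line marks equal differences. Grey points are 25 interferon-stimulated genes and black points the 7 members. Slfn1 lies far to the right at 2.15, Slfn2 and Slfn8 near the line, and Slfn3, Slfn4, Slfn5 and Slfn9 above it. Spleen 4 also differs from the other spleens in slide and title date.

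The promoters of the members were searched for the letters of the interferon-stimulated response element, GAAA, NN and GAAA in a row, on either strand. RefSeq windows of 300 bases (GRCm38.p6) were on hand for all 7 members. A match was present for 3 of the 7, Slfn5, Slfn8 and Slfn9, that is, for long members alone, and it was present in 3.44% of 32851 promoter windows of all genes and for 9 of 18 interferon-stimulated genes with a window. The stretches are shown with the match in capitals, for Slfn5 on the plus strand (chr11:82951917-82951986), for Slfn8 on the minus strand (chr11:83020819-83020888) and for Slfn9 on the minus strand (chr11:82991836-82991905).
Slfn5: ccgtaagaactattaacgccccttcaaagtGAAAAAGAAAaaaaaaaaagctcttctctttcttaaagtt
Slfn8: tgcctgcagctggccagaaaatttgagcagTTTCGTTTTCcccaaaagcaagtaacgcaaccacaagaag
Slfn9: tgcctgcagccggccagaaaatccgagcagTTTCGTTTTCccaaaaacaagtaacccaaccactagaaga
The Slfn8 and Slfn9 stretches carry the same match, 48 and 45 bases before the start site, and that of Slfn5 begins 155 bases before it. For Slfn8 a further start site puts it 136 bases away. The windows of Slfn1, Slfn2, Slfn3 and Slfn4 did not hold these letters, and no member's window held the gamma-activated sequence TTCNNNGAA, found in 8.3% of all windows. Whether the match bears on the level of any member was not tested.

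Because Slfn2 protects transfer RNA from cleavage, the nucleases and inhibitors of that step were followed too. Of 8 genes tested, 3 were called higher, beside 8.88% of all genes, and 0 lower, with a median of 1.81. The nuclease genes Ang (1.90 ± 0.48, adjusted p = 0.0439) and Ang4 (2.18 ± 0.57, adjusted p = 0.048), close paralogs that may share signal, and the inhibitor gene Rnh1 (1.73 ± 0.38, adjusted p = 0.0306) had higher levels in heart. Nsun2, which methylates transfer RNA, was at 0.45 (adjusted p = 0.279). The count was 0 without heart 1, heart 2 or heart 4, beside 2.11, 2.19 and 2.21% of all genes called higher. It was 0 without spleen 2, beside 6.23%, and 5 without spleen 4, beside 13.9%. With quantile normalization, in the deposited value table and with slide as a random block it was 1, beside 8.32, 8.37 and 8.26%. It was 0 with slide as a fixed block, beside 0.44%, and 0 where dim probes were kept, beside 3.28%. It was 2 with the date block, beside 8.13%, and 5 with array weights per tissue, beside 8.16%.

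Cell cycle genes, relevant to a family tied to quiescence, fell in heart for 10 of 12 tested and rose for 0. Beside them, 6.52% of all genes were called lower and 8.88% higher. The median of the 12 was −4.53. Ccna2 changed by −5.24 ± 0.90 (adjusted p = 0.0165) and Ccnb1 by −5.07 ± 1.03 (adjusted p = 0.0244). Top2a, which all 3 heart arrays read as dim, was at least 37.4-fold lower (adjusted p = 0.0197). Pcna was at −0.12 (adjusted p = 0.815). The count was 0, 0 and 1 without heart 1, heart 2 and heart 4, beside 0.83, 0.866 and 0.924% of all genes, and 0 with slide as a fixed block, beside 0.0794%. A gene dim in heart could be tested only through the spleen arrays, where it was bright. With probes above background on all 6 arrays the count was 7, beside 5.66% of all genes. All 12 cell cycle genes were lowest in spleen 4 among the spleens, as were 4263 of 16304 tested genes. Slfn1, Slfn2 and the downstream Slfn8 probe were highest there of all 6 arrays, as were 26% of tested genes. A connection between these was not tested.

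Markers of cell types that the sort could hold were examined as well, and some lists differed between the tissues while others did not. Among all tested genes, 8.88% were called higher in heart and 6.52% lower. In bulk samples, fewer cells of a type and less RNA per cell cannot be told apart. The summed scaled signal of 12 monocyte and macrophage markers, all 12 tested and 3 called higher, was 661 to 722 in the hearts and 281, 513 and 607 in spleens 1, 2 and 4. That of 11 neutrophil markers, 7 of them called lower in heart, was 24.3 to 32.1 in the hearts and 735, 1063 and 489 in the spleens. T cell markers, with 0 of 11 called, summed to 9.01 to 11.1 in the hearts, 93.3 in spleen 1, 9.11 in spleen 2 and 10.2 in spleen 4. The sum of spleen 4, the sample with the high Slfn1 level, thus lay within the range of the hearts, but single T cell markers did not all follow it. Cd4 was at 2.96 in spleen 4 and 2.49 to 2.88 in the hearts, and Il7r was at −5.90 and 0.83 to 1.5. The T cell receptor chain gene Cd3d was at −3.69 in spleen 4 and −6.95 to −5.96 in the hearts, and Cd2 at −0.43 and −2.44 to −1.79. The kinase gene Lck was at −2.45 and −3.99 to −3.35, and Thy1 at −3.40 and −4.54 to −4.25. Cd8b1 (−2.80, hearts −3.67 to −3.42) and Cd247 (−1.92, hearts −2.38 to −1.99) also lay above the hearts in spleen 4. Cd3e (−0.75, hearts −0.82 to −0.58) and Ccr7 (−2.87, hearts −3.41 to −2.40) lay within their range, and Cd5 (−3.08, hearts −2.90 to −2.58) below it. Spleen 1 also led for B cell markers (117, against 6.14 and 4.93 in spleens 2 and 4 and 2.87 to 3.25 in the hearts; 0 of 6 called) and natural killer cell markers (66.9, against 15.0 and 5.86, and 3.66 to 3.81 in the hearts; 1 of 4 called lower). Dendritic cell markers (0 of 6 called) summed to 47.4 to 58.0 in heart and 40.6 to 49.3 in spleen, and erythroid markers (0 of 3 called) to 8.01 to 39.0 and 7.64 to 135. Fibroblast markers (5 of 5 called higher, with 5 of 8 dim on all spleen arrays) summed to 1.95 to 5.60 in heart and 0.129 to 0.187 in spleen. Cardiomyocyte markers (4 of 7 called higher) summed to 0.752 to 1.40 and 0.302 to 0.429. A gene dim in spleen could be tested only through the heart arrays, where it was bright. With probes above background on all 6 arrays, 1 fibroblast and 1 cardiomyocyte marker were called higher, beside 8.82% of all genes. Without heart 1, 2 and 4, cardiomyocyte calls were 1, 1 and 2 and fibroblast calls 3, 3 and 5. Monocyte and macrophage calls were 1 each time, beside 2.11, 2.19 and 2.21% of all genes called higher. Neutrophil calls were 5 and natural killer calls 0 each time, beside 0.83, 0.866 and 0.924% called lower. With slide as a fixed block, 0 cardiomyocyte, 1 fibroblast and 1 monocyte or macrophage marker were called higher, beside 0.44%. In that fit 4 neutrophil and 0 natural killer cell markers were called lower, beside 0.0794%. The part of all these markers in the member values was not tested.

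Genes with the profile most like that of each member over the 6 arrays were sought among 16303 others, by the root mean square difference of levels centred on their own mean. The nearest to Slfn4 were Zcchc2 (0.064 log2 units), Dbh (0.073) and Kpna1 (0.084), and the nearest to Slfn3 were F9 (0.050), LOC100044040 (0.058) and Tnpo1 (0.059). Slfn1 was nearest to Slc12a9 (0.093), Acyp2 (0.157) and B3gnt6 (0.158), and Slfn5 to Spata18 (0.231), Hspa12b (0.277) and LOC100046403 (0.281). Slfn2 was nearest to Adipor2 (0.038), Slfn8 to Vipas39 (0.028) and Slfn9 to Gapvd1 (0.026). Of the 21 nearest genes, 3 for each member, 0 were Schlafen genes and 0 were on the interferon-stimulated list.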

How the data were processed

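Each spot's deposited intensity is the processed signal of Agilent Feature Extraction, version 10.7.3.1 in the headers. It is corrected for background within the array and not scaled between arrays. The deposited value table holds log2 values. Between arrays its differences followed those of quantile-normalized signals (r at least 0.9993 across 19313 probes), every column had a median of 0, and the baseline subtracted per probe stays unknown.

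Control and outlier spots were left out, spots of a probe were averaged as log2, and arrays were scaled to their 75th percentile. A probe was tested where well above background on all 3 arrays of a tissue (21801 probes). A gene was represented by its brightest tested probe. Names came from RefSeq (GRCm38) by accession for 26412 probes, otherwise from the file. Heart and spleen were compared with limma 3.58.1 in R 4.3.3 (two-sided, Benjamini-Hochberg over all tested genes, threshold 0.05). The fit was also run on simulated data that gave both tissues the mean SD of the hearts. That run therefore does not cover the larger SD of the spleens seen here. A fold given as "at least" sets the brighter tissue's mean against, for each dim array, the lowest level that any detected probe had there, or the probe's own level if higher. Summed marker signals add each gene's brightest probe, in multiples of the array's 75th percentile.

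Correlations of deviations between heart and spleen of equal replicate number were −0.053, 0.040 and 0.0091. Those of unequal number ran from −0.072 to 0.047. With 3 samples per tissue these values cannot tell whether equal numbers mark the same mouse, and the fit was left unpaired. Named genes are all members and, per list, the 3 called genes with the largest change and the brightest not called. Of the marker lists, sums and counts are given, with single levels for the tested T cell markers alone. Members and lists were chosen with earlier results of these data known. Depth has no count here: the number of arrays limits the precision. Figures used matplotlib 3.10.9.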

Additional observations from a re-analysis of the deposited data

How the results depend on the processing

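Slfn4 kept its direction under all 21 alternatives (log2 fold change 0.71 to 1.06, adjusted p 0.0249 to 0.407), with its call kept in 8 and ended in 13. Slfn5, Slfn9 and Slfn3 also kept theirs. Slfn8 reversed with slide as a fixed block (−0.26), Slfn2 with quantile normalization (−0.11), the deposited value table (−0.090) and the slide block (−0.15), and Slfn1 within the earlier title date (0.52) and without spleen 4 (−0.69 to 0.54 over the fits with an array left out). The number of members called, 1 of 7, was 0 with scaling to the median, without a filter on dim probes, with slide as a fixed block, with the date block, within the earlier date, with the replicate block and with array weights per tissue, and 0 to 2 with an array left out. The number of genes called, 2521, was 1449 without a filter on dim probes, 85 with slide as a fixed block, 1587 with the replicate block and 482 to 4229 with an array left out. Under the replicate block, which joins samples that share a number, the Slfn4 adjusted p was 0.104. Why these values moved was not tested, beyond fewer residual degrees of freedom with a block or fewer arrays. Scaling to the median moved the median of all genes from 0.10 to 0.22. The upstream Slfn8 probe has only a bound in spleen 4, where it was not well above background.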

Other observations

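The array holds 3 more probes for predicted transcripts that its descriptions call similar to Schlafen genes; they were chosen after their values were seen. LOC640793, described as similar to Slfn9, was at −3.21, −3.22 and −3.63 in hearts 1, 2 and 4 and at −4.60, −4.92 and −5.54 in spleens 1, 2 and 4. In spleen 4 it was not well above background, so it entered the fit only through the hearts. It rose in heart by 1.66 ± 0.29 (SE, adjusted p = 0.0166), or by 1.55 with spleen 4 held at the detection floor of that array. LOC631406, described as similar to Slfn8, was at 2.20, 2.26 and 2.19 in the hearts and 1.48, 1.67 and 2.36 in the spleens, with spleen 4 highest of the 6 as for the downstream Slfn8 probe (0.38 ± 0.26, adjusted p = 0.369). Gm11427, described as similar to Slfn4, was at −0.026 ± 0.27 (adjusted p = 0.959) and did not show the difference of Slfn4.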
